A study of Mus musculus with 52 samples.

Results

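Transcripts of 8 dual-specificity phosphatases, Dusp1, Dusp3, Dusp6, Dusp8, Dusp10, Dusp13, Dusp26 and Dupd1 (also called Dusp29), were followed in the gastrocnemius, a calf muscle, of aged mice before, during and after hindlimb unloading. The 8 genes were chosen from a counts table of 55487 genes by their symbols, for how their CPM (counts scaled to each library's total) ran over all 13 groups of the study. Their levels and differences below are therefore a description with no test. All 8 also passed the filter on low counts that left 16668 genes. On GRCm38 the genes lie at chr1:184013302-184075636 (Dusp10), chr7:142079490-142095843 (Dusp8), chr8:31089471-31097047 (Dusp26), chr10:99263231-99267489 (Dusp6), chr11:101971143-101987013 (Dusp3), chr14:21676537-21714576 (Dupd1), chr14:21733394-21751181 (Dusp13) and chr17:26505590-26562128 (Dusp1), and all are protein-coding.

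Each of the 13 groups held 4 libraries, 52 in all, made from total RNA of male C57BL/6 mice aged 22 to 24 months. An ambulatory group, never unloaded, drank water. All other mice underwent hindlimb unloading, in which the hind legs carry no weight, and were sampled at the end of unloading, after 7 days of reloading or after 14 days of reloading. At each of these times separate mice had drunk water, metformin, leucine, or metformin with leucine. Metformin is a glucose-lowering drug and leucine a branched-chain amino acid. No ambulatory group received a drink other than water, so in the comparisons of unloaded, drink-treated mice with ambulatory mice the drink and the unloading cannot be told apart. Nothing in the labels beyond a sample number says how the mice were housed or dissected, so the spread is that between these samples.

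Dual-specificity phosphatases remove phosphate from tyrosine and from serine or threonine. The typical members carry a docking domain for mitogen-activated protein (MAP) kinases and switch off ERK, JNK and p38, the kinases that relay growth factor, stress and contraction signals in muscle. Many of them are themselves induced by the kinases they silence, which makes a feedback loop. The atypical members lack the docking domain and act on a wider set of substrates.

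The start regions of 4 of the genes are printed first, chosen for the differences described below. The RefSeq table on GRCm38.p6 held a window from 250 bases before to 50 bases after the start for 7 of the 8 members, and Dusp26 was not among them. Dusp10 and Dupd1 were low during unloading with 3 of the 4 drinks, Dusp1 was high during unloading on water, and Dusp8 was high after 14 days of reloading on water. With both drinks Dusp10 lay below ambulatory mice in all unloaded libraries but replicate 6. The windows lie at chr1:184034131-184034430 (plus strand), chr14:21714527-21714826 (minus strand), chr17:26508423-26508722 (minus strand) and chr7:142095235-142095534 (minus strand). Capitals mark matches to the motifs listed after the sequences, on either strand.
Dusp10: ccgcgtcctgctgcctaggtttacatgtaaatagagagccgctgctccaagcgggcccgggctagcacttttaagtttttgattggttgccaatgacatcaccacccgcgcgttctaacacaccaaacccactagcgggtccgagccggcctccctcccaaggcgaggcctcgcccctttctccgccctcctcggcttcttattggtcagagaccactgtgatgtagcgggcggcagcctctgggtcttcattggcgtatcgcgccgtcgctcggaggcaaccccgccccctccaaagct
Dupd1: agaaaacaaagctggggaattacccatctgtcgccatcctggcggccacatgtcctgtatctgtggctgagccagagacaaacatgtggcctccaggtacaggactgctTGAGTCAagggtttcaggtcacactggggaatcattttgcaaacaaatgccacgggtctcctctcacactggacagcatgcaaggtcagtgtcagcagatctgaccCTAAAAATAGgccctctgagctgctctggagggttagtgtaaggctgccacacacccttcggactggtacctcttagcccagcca
Dusp1: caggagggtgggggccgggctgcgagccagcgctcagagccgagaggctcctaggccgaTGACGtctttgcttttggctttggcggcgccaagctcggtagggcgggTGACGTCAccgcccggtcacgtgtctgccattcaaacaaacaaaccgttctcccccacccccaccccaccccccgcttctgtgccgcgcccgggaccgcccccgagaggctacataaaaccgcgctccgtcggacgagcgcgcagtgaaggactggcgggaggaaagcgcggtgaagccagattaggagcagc
Dusp8: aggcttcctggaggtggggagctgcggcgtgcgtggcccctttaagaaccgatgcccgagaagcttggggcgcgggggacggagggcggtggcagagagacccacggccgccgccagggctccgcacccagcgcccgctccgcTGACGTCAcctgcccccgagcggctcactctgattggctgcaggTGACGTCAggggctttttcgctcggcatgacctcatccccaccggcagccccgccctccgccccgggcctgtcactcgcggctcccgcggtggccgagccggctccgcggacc

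The motifs searched were the cAMP response element TGACGTCA and its core TGACG (which lies inside the full element), the AP-1 site TGANTCA, the muscle E-box CAGCTG, the TATA box TATAAA, and the CArG box and MEF2 site by name. The full cAMP response element is read by the CREB and ATF factors. It occurred in 1.79% of 32851 windows, once in the Dusp1 window at 143 bases before the start and 2 times in the Dusp8 window, at 107 and 63 bases before the start. The 32851 windows leave out a chromosome that holds none of the members. A separate core, found in 20.8% of windows, began 191 bases before the Dusp1 start. The Dupd1 window held an AP-1 site (7.81% of windows) at 141 bases and a MEF2 site (3.19% of windows) at 35 bases before the start. None of these letters was found in the Dusp10 window. The Dusp10, Dusp1 and Dusp8 windows lie at RefSeq starts inside the gene spans given above. The outer ends of those spans were not searched. The Dusp1 and Dusp8 windows had 67% and 73.3% G and C, against a median of 52.7% over the 32851 windows, and the Dupd1 window had 53.3%. A match is a run of letters, not a shown binding site.

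Library totals ran from 15605044 to 32492548 counts. Skeletal muscle fibre markers (6 of 6 measured) were high in all libraries, with summed levels between 219700 and 337000 CPM. Albumin, a liver transcript, was above 16 CPM in 12 libraries spread over 7 groups. Residual 5.8S ribosomal RNA differed between groups. It was 7.64 to 14.5 CPM in the ambulatory group and 7.99 to 13.8 CPM in unloaded mice on water, but 0.294 to 0.998 CPM after 14 days on water. After 14 days with the 3 other drinks it was 9.15 to 33.03 CPM, and in unloaded mice on both drinks 2.07 to 8.82 CPM. One library, replicate 1 of the metformin with leucine group after 14 days, stood apart with 7026 CPM of the ribosomal repeat transcript Gm23935 and is named where it touches a value. In bulk muscle, fewer cells of a type and less RNA per cell cannot be told apart.

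Per kilobase of exon, Dusp3 was the most abundant of the 8 in ambulatory muscle at 18.9 ± 1.43 CPM per kb (SD, n = 4). Dusp13 followed at 12.9 ± 0.989, Dupd1 at 12.1 ± 1.89, Dusp1 at 10.2 ± 2.06 and Dusp10 at 7.91 ± 0.788 CPM per kb. Dusp26 stood at 3.57 ± 0.444, Dusp6 at 2.73 ± 0.263 and Dusp8 at 2.71 ± 0.33 CPM per kb. Dusp13 and Dupd1 lay within their SDs of each other, as did Dupd1 and Dusp1, and Dusp6 and Dusp8. Among 28 family genes with enough counts, only Epm2a, the glycogen phosphatase laforin, was above Dusp3, at 22.3 ± 1.04 CPM per kb. Dusp27, an atypical relative, stood between Dusp3 and Dusp13 at 14.5 ± 1.75 CPM per kb. The typical phosphatases Dusp4 and Dusp5 were near the bottom, at 0.456 ± 0.138 and 0.115 ± 0.0767 CPM per kb.

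**Figure D1:**
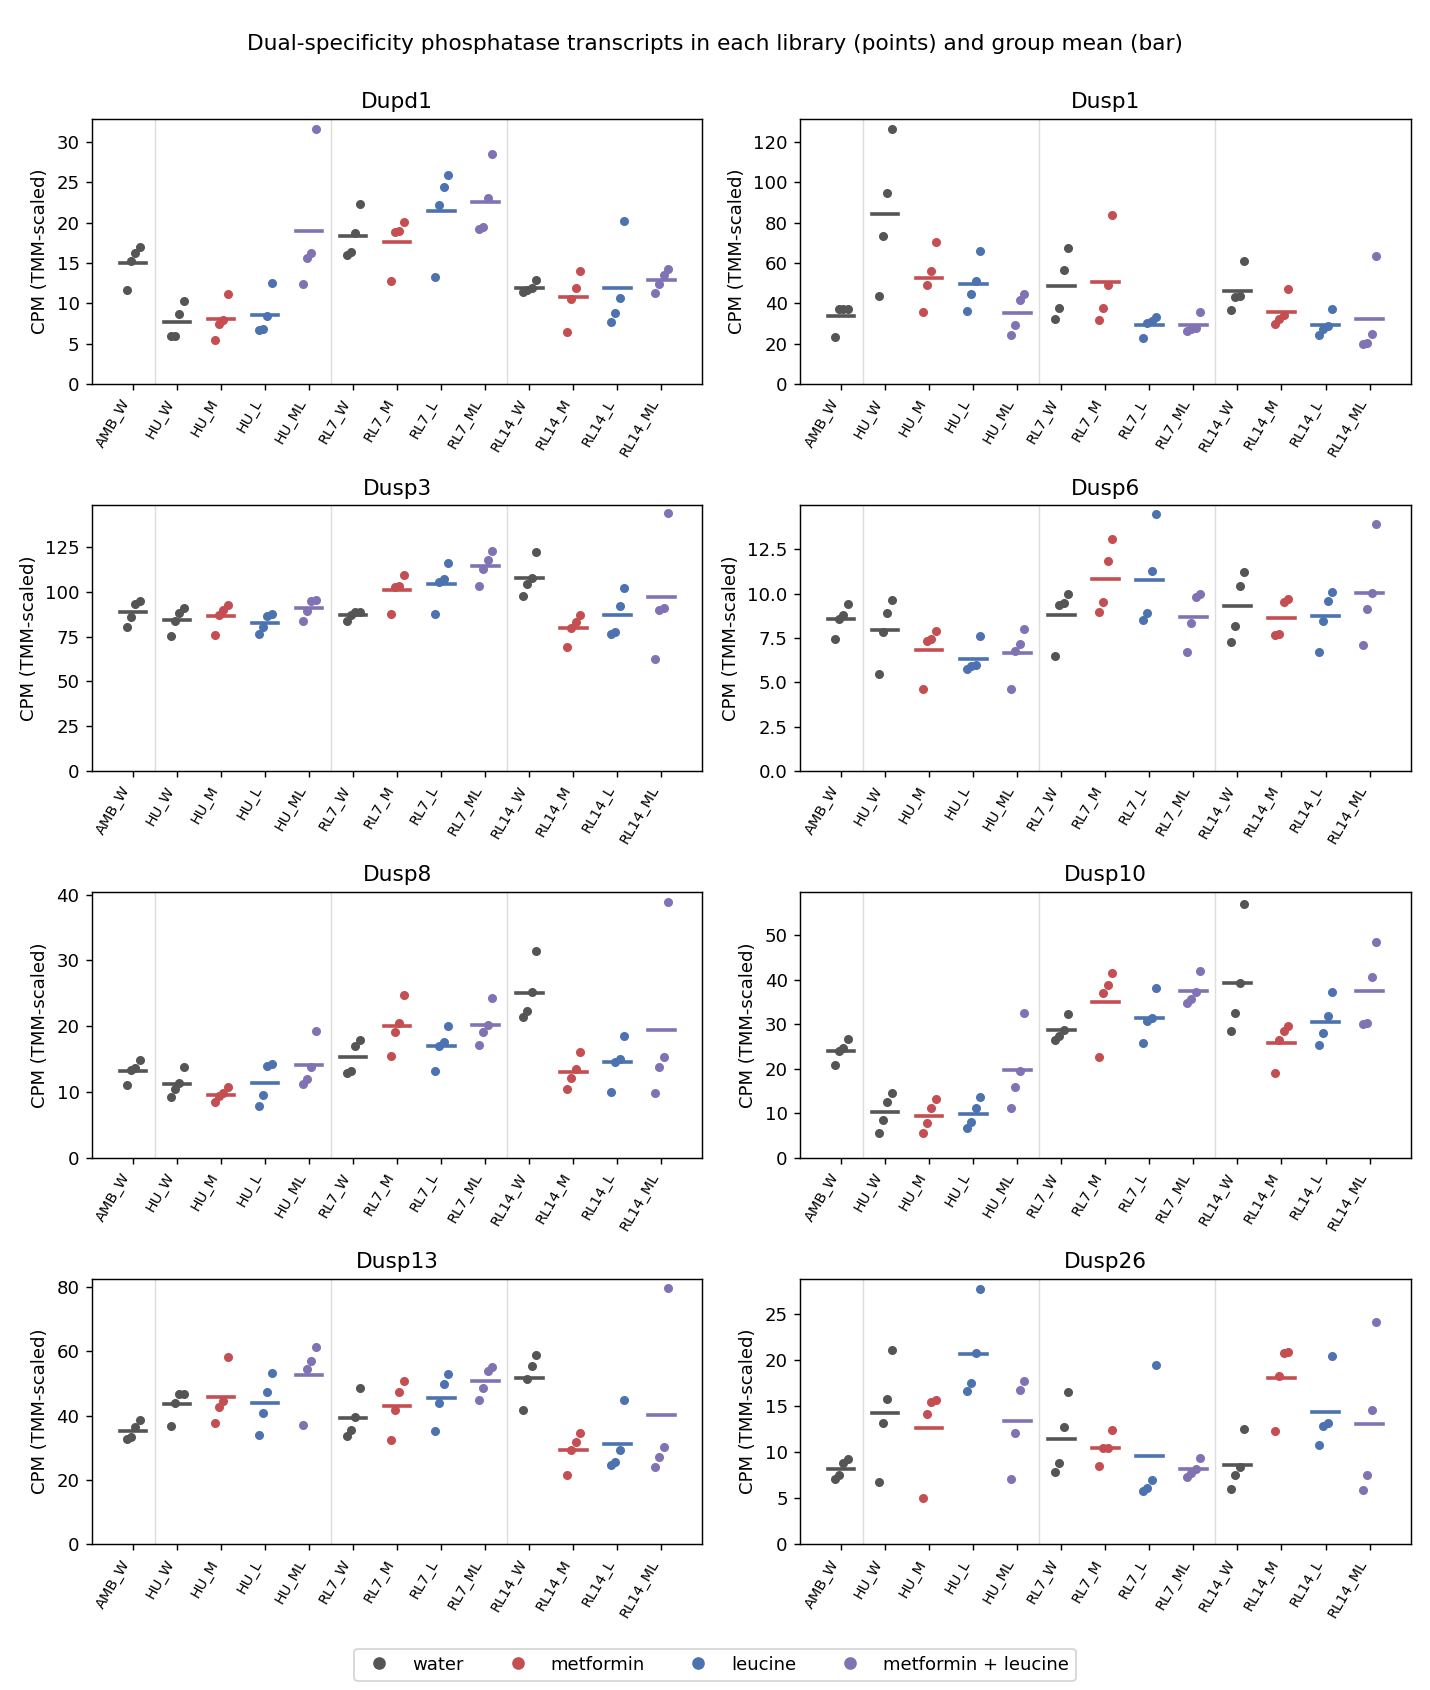
CPM of each phosphatase (vertical axes, from 0) in every library, with a bar for the group mean, in the 13 groups (AMB ambulatory, HU unloading, RL7 and RL14 reloading for 7 and 14 days, then W water, M metformin, L leucine, ML metformin with leucine). Dusp10 is low in the unloading groups and Dusp1 reaches 126 CPM in unloading on water.

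Among the typical phosphatases, Dusp10 differed most between groups. It encodes a phosphatase of JNK and p38. In ambulatory mice it measured 26.7, 20.9, 23.9 and 24.6 CPM. During unloading on water it measured 8.38, 5.48, 14.5 and 12.4 CPM. All 4 unloaded libraries lay below all 4 ambulatory ones, and the log2 fold change was -1.24 ± 0.27 (SE).

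Unloaded mice on metformin had 7.85, 13.2, 5.59 and 11.1 CPM of Dusp10, and those on leucine 13.6, 11.3, 6.65 and 7.97 CPM. Both groups lay wholly below the ambulatory libraries, with log2 fold changes of -1.35 ± 0.27 and -1.28 ± 0.27. The mice on both drinks spread more widely, at 15.98, 11.2, 19.5 and 32.6 CPM, and overlapped the ambulatory libraries (-0.29 ± 0.26). Replicate 6 was the high one there. Without it the difference from ambulatory mice was -0.64.

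After 7 days of reloading Dusp10 stood at 28.8, 32.3, 26.6 and 27.5 CPM on water. It measured 37.1, 41.5, 38.9 and 22.7 CPM on metformin, and 38.2, 25.7, 31.4 and 30.9 CPM on leucine. With both drinks it measured 37.3, 34.8, 41.95 and 35.6 CPM. In each of the 4 drinks every reloaded library was above every unloaded one. The log2 fold changes over unloading were 1.5 ± 0.27 on water, 1.89 ± 0.27 on metformin, 1.67 ± 0.27 on leucine and 0.93 ± 0.26 on both.

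The 5.8S ribosomal RNA moved with the reloading comparisons of Dusp10. It was 7.99 to 13.8 CPM in unloaded and 2.91 to 7.39 CPM in reloaded mice on water. The gap was wider on metformin (10.03 to 12.3 against 0.379 to 1.63 CPM) and on leucine (14.3 to 32.8 against 0.533 to 1.14 CPM). With its log2 level as a covariate, the Dusp10 difference was 1.25 on water, 1.11 on metformin, 0.73 on leucine and 0.65 on both. In the unloading comparison on water, where the 5.8S ranges overlapped, it was -1.24 with the covariate.

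At 14 days Dusp10 on water was 32.5, 28.6, 57.2 and 39.3 CPM, all above the ambulatory libraries (0.71 ± 0.26, and 0.47 without replicate 4). The 5.8S ribosomal RNA of these 2 groups did not overlap either, and its part in this and the other 14-day differences from ambulatory mice was not tested. The group means on metformin, leucine and both drinks were 25.9 ± 4.79, 30.6 ± 5.16 and 37.4 ± 8.84 CPM (SD, n = 4), each overlapping water. The last of these groups holds the library rich in Gm23935, at 48.5 CPM. Ordered by group mean, the 3 lowest Dusp10 levels were those of unloading on metformin, leucine and water, at 9.44 to 10.2 CPM, which did not differ beyond their spread.

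Dusp1, the immediate early phosphatase of p38, JNK and ERK that sits in the nucleus, went the other way on water. It measured 37.3, 37.2, 37.4 and 23.6 CPM in ambulatory mice and 126, 73.6, 94.7 and 43.6 CPM in unloaded mice. No unloaded library was as low as an ambulatory one, and the log2 fold change was 1.32 ± 0.31. The unloaded water libraries themselves differed widely from each other.

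The group means of Dusp1 in unloaded mice were lower with the other drinks than on water. Metformin libraries held 70.4, 48.98, 55.98 and 35.9 CPM, leucine libraries 44.6, 50.9, 65.9 and 36.5 CPM, and those on both 24.4, 29.3, 41.8 and 44.9 CPM. All 3 groups overlapped the ambulatory libraries and the unloaded water libraries. Against unloading on water the difference was -1.27 ± 0.31 with both drinks, and only the 44.9 CPM library reached the lowest water library. Of the 13 group means, that of unloading on water, 84.5 ± 34.8 CPM, was the highest, and the other 12 lay between 29.4 and 52.8 CPM.

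After 7 days of reloading Dusp1 was 32.4 to 67.5 CPM on water, 31.7 to 83.9 on metformin, 22.9 to 33.2 on leucine and 26.4 to 35.9 on both. Only the leucine libraries lay wholly below their unloaded counterparts, by -0.75 ± 0.31 on the log2 scale. On water the difference was -0.80 ± 0.31 with overlap. With the 5.8S covariate the leucine difference was -2.23 and the metformin difference went from -0.06 to -1.33. At 14 days the group means of Dusp1 were 46.2 ± 10.5 CPM on water and 29.5 to 35.9 CPM with the other drinks, all overlapping. With both drinks the overlap rested on the library rich in Gm23935, at 63.4 CPM. Without that library the difference from water was -1.08. The sign of the differences from water turned with the covariate (from -0.37 to 1.20 on metformin, from -0.65 to 0.93 on leucine and from -0.52 to 1.10 on both). Over the 52 libraries the genes most like Dusp1 were Fos (Pearson r = 0.822), Zfp36 (0.75) and Nr4a1 (0.731), 3 other immediate early genes. These correlations are over log2 CPM, share library and group, and carry no test. With the group means removed they were 0.752, 0.612 and 0.708.

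Dusp8, a phosphatase of JNK and p38, had its highest group mean after 14 days of reloading on water, 25.1 ± 4.53 CPM (SD, n = 4). Ambulatory libraries held 13.7, 13.3, 14.8 and 11.01 CPM. After 14 days on water they held 31.4, 21.4, 25.1 and 22.3 CPM, all above the ambulatory libraries (log2 fold change 0.92 ± 0.25). During unloading it was between 7.82 and 19.3 CPM over all drinks. Only the metformin group, at 10.7, 8.49, 9.80 and 9.33 CPM, lay wholly below ambulatory mice (-0.46 ± 0.25). After 7 days the metformin libraries held 20.5, 19.1, 24.8 and 15.5 CPM, all above the unloaded ones (1.06 ± 0.25, and 0.29 with the 5.8S covariate), while on water they held 17.97, 16.9, 13.2 and 12.9 CPM and overlapped them (0.44 ± 0.25).

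At 14 days Dusp8 measured 13.5, 16.1, 12.2 and 10.5 CPM on metformin and 18.5, 15.1, 9.96 and 14.5 CPM on leucine. All of these lay below the water libraries (-0.94 ± 0.25 and -0.79 ± 0.25). On both drinks it measured 38.8, 9.79, 15.4 and 13.8 CPM. The 38.8 CPM belonged to the library rich in Gm23935. Without that library the difference from water was -0.95, and with it -0.36 ± 0.24. The 5.8S ribosomal RNA ranges of the 14-day water and drink libraries did not overlap, so the drink and that RNA cannot be told apart in this comparison. With it as a covariate the Dusp8 difference on metformin was 0.02 and on leucine 0.16.

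Dusp6, the cytoplasmic phosphatase specific for ERK, varied least among the typical members, with group means from 6.30 to 10.8 CPM. In ambulatory mice it was 8.79, 9.41, 8.57 and 7.44 CPM. Unloaded libraries lay between 4.60 and 9.65 CPM and overlapped them with every drink. From unloading to 7 days of reloading, metformin mice went from 7.91, 4.60, 7.32 and 7.46 CPM to 8.96, 9.51, 11.9 and 13.05 CPM. Leucine mice went from 7.58, 5.89, 5.74 and 5.98 CPM to 8.89, 11.3, 8.54 and 14.5 CPM. Neither pair of groups overlapped (0.66 ± 0.20 and 0.78 ± 0.20). On water the libraries overlapped (0.15 ± 0.20). Without the libraries high in albumin the leucine difference was 0.42. Residual ribosomal RNA, described above, also separated unloaded from reloaded libraries on metformin (10.03 to 12.3 against 0.379 to 1.63 CPM). On leucine it was 14.3 to 32.8 against 0.533 to 1.14 CPM, and the gap was narrower on water. No Dusp6 value with that RNA as a covariate is given here. Whether reloading acted differently on Dusp6 under these drinks than on water was not tested.

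The atypical Dupd1, a phosphatase made mainly in skeletal muscle, was, like Dusp10, low in unloading with 3 of the drinks. It measured 11.6, 16.9, 15.2 and 16.3 CPM in ambulatory mice and 8.66, 6.02, 5.94 and 10.2 CPM in unloaded mice on water. The groups did not overlap, and the log2 fold change was -0.96 ± 0.27. Unloaded metformin libraries held 11.2, 7.98, 7.42 and 5.51 CPM (-0.91 ± 0.27, no overlap). Leucine libraries held 12.5, 6.83, 6.76 and 8.41 CPM (-0.79 ± 0.27), the first of them inside the ambulatory range.

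In unloaded mice given both drinks Dupd1 stood at 31.5, 16.2, 12.4 and 15.6 CPM. All 4 were above all 4 unloaded water libraries (1.29 ± 0.27). Without the 31.5 CPM library the difference was 0.93. This group overlapped the ambulatory one (0.33 ± 0.26).

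After 7 days Dupd1 reached 22.3, 15.98, 18.7 and 16.4 CPM on water, 18.9, 18.8, 20.03 and 12.8 CPM on metformin, and 22.1, 24.4, 13.3 and 25.8 CPM on leucine. These groups lay wholly above their unloaded counterparts, by 1.25 ± 0.27, 1.14 ± 0.27 and 1.3 ± 0.27. With the 5.8S covariate the differences were 1.33, 1.40 and 1.62. With both drinks the reloaded libraries held 28.5, 19.2, 19.4 and 23.02 CPM and overlapped the unloaded ones (0.26 ± 0.26). The reloading difference with both drinks was 0.99 ± 0.37 smaller on the log2 scale than on water, and 0.65 smaller without the unloaded library of 31.5 CPM.

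At 14 days Dupd1 was back near or below the ambulatory level, at 12.9, 11.9, 11.7 and 11.4 CPM on water (-0.33 ± 0.26). Group means with the other drinks ran from 10.7 to 12.9 CPM. Although Dupd1 and Dusp10 were both lower in unloading than at 7 days on water, metformin and leucine, their r over the 52 libraries was 0.571, and 0.075 once group means were removed. The genes most like Dupd1 were Ptges3l, Cbr2 and Hras (r = 0.808, 0.808 and 0.804).

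**Figure D2:**
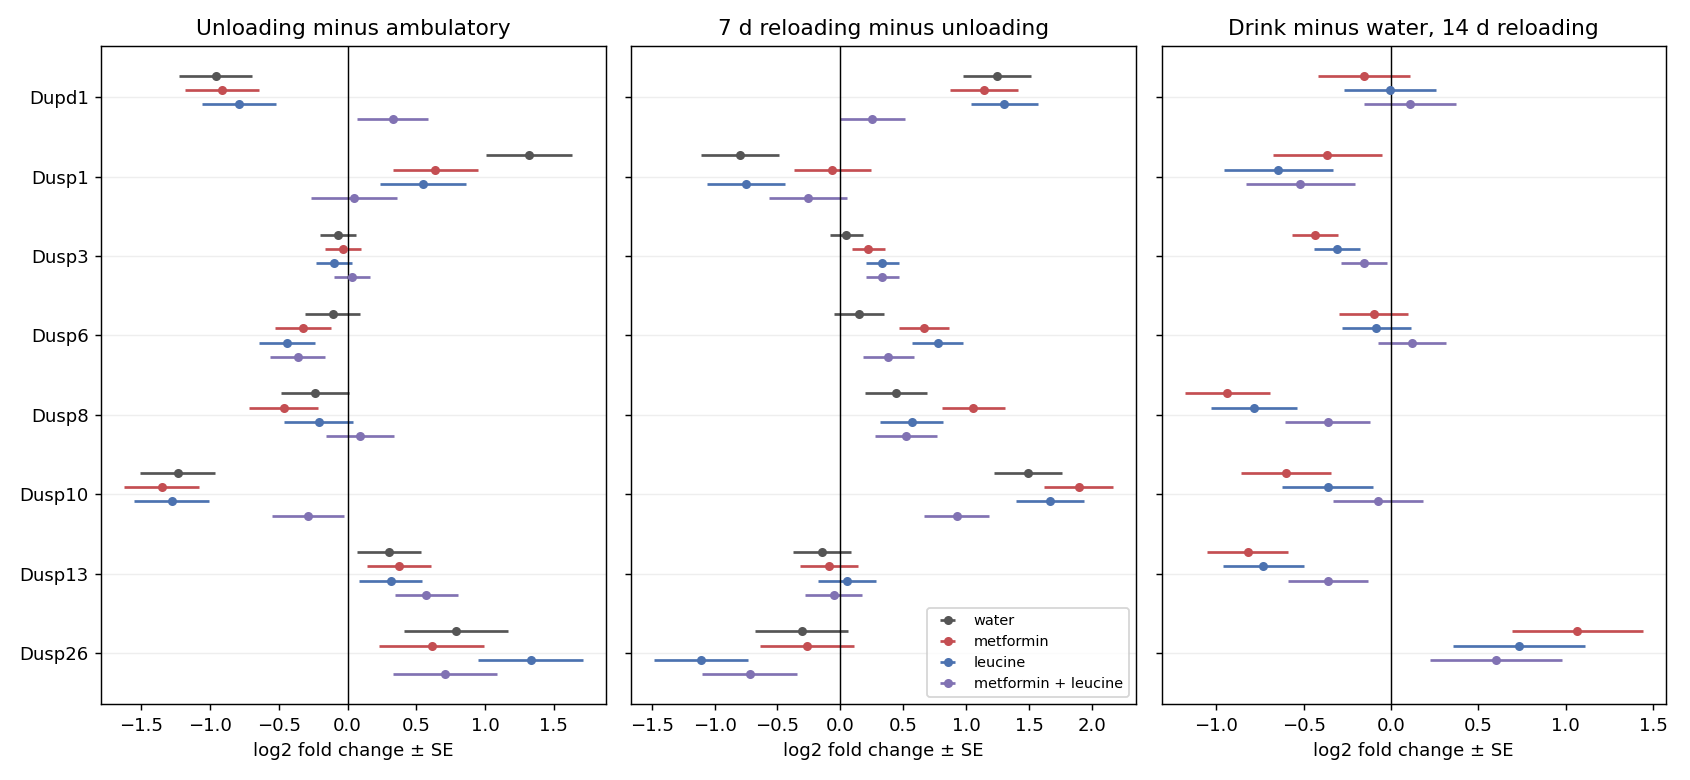
Log2 fold change with its SE (horizontal axes) of each phosphatase for unloading minus ambulatory, for 7 days of reloading minus unloading, and for each drink minus water at 14 days, coloured by drink. Dusp10 lies between -1.35 and -1.24 for 3 drinks on unloading and between 0.93 and 1.89 on reloading.

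Dusp13 lies next to Dupd1 on chromosome 14 and encodes a muscle and a testis phosphatase from one locus. It did not follow Dupd1 (r = 0.237 over 52 libraries). Ambulatory libraries held 38.6, 36.5, 32.8 and 33.4 CPM, and the unloaded groups overlapped them with every drink (0.30 to 0.57 on the log2 scale, SE 0.23). Reloading for 7 days differed from unloading by at most 0.14 in either direction.

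At 14 days Dusp13 on water was 51.3, 58.9, 55.4 and 41.8 CPM, above every ambulatory library (0.55 ± 0.23). On metformin it was 34.7, 31.8, 29.2 and 21.7 CPM, wholly below water (-0.82 ± 0.23). Leucine libraries held 29.5, 44.9, 25.7 and 24.6 CPM (-0.73 ± 0.23, overlap). Those on both drinks held 79.6, 27.2, 30.2 and 24.1 CPM, and without the first, which is the library rich in Gm23935, the difference from water went from -0.36 ± 0.23 to -0.93. With the 5.8S covariate the metformin difference was -0.49.

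Samd8 runs on the opposite strand across the start of the Dusp13 locus with no shared exon base, at 100.4 CPM on average, and its r with Dusp13 was 0.205. The antisense transcript Gm15935 shares 280 exon bases with Dusp13 but averaged 0.233 CPM. The kit keeps strand, and whether counting used it is not given in the sources used here.

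Dusp3, a small atypical phosphatase of ERK and JNK, was the steadiest of the 8. Its group means ran from 79.8 to 114.2 CPM, a ratio of 1.43, against 4.17 for Dusp10. Ambulatory libraries held 93.2, 94.6, 85.8 and 80.3 CPM, and no unloaded group differed from them by more than 0.10 on the log2 scale (SE 0.13). At 14 days the metformin libraries, at 79.8, 83.0, 87.1 and 69.4 CPM, lay below the water libraries, at 104.1, 122.2, 107.7 and 97.6 CPM (-0.43 ± 0.13). With the 5.8S covariate this was -0.25. After 7 days Dusp3 on leucine and on both drinks lay wholly above unloading (0.33 ± 0.13 in each, 0.15 and 0.28 with the covariate). Libraries high in Dusp3 tended to be high in Dusp8, with r = 0.756 over 52 libraries and 0.67 with group means removed. The library rich in Gm23935 was the highest of the 52 for both genes, at 144.1 and 38.8 CPM, and its weight in r was not tested. Both genes also had a negative r with 5.8S ribosomal RNA (-0.59 and -0.615).

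Dusp26, another atypical phosphatase, was highest in unloading on leucine. Ambulatory libraries held 7.59, 9.31, 8.85 and 7.15 CPM. Unloaded leucine libraries held 27.7, 20.8, 17.6 and 16.7 CPM, all above them (1.33 ± 0.38, and 1.29 with the 5.8S covariate). Unloaded groups on water (6.83 to 21.1 CPM), metformin (5.08 to 15.7) and both drinks (7.12 to 17.8) overlapped the ambulatory range.

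Reloaded leucine libraries held 5.79, 6.96, 19.5 and 6.18 CPM of Dusp26, and the third of them is far from the other 3. The difference from unloading was -1.11 ± 0.37, and -1.71 without it. At 14 days the metformin libraries held 20.7, 18.3, 12.3 and 20.9 CPM against 12.5, 6.02, 8.42 and 7.60 CPM on water (1.07 ± 0.38). The lowest metformin library lay just under the highest water library. With the 5.8S covariate this was 0.78. Over the 52 libraries Dusp26 had r = -0.538 with Dusp3 and was most like Camta1, Clip4 and Lrrn1 (r = 0.861, 0.833 and 0.831).

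**Figure D3:**
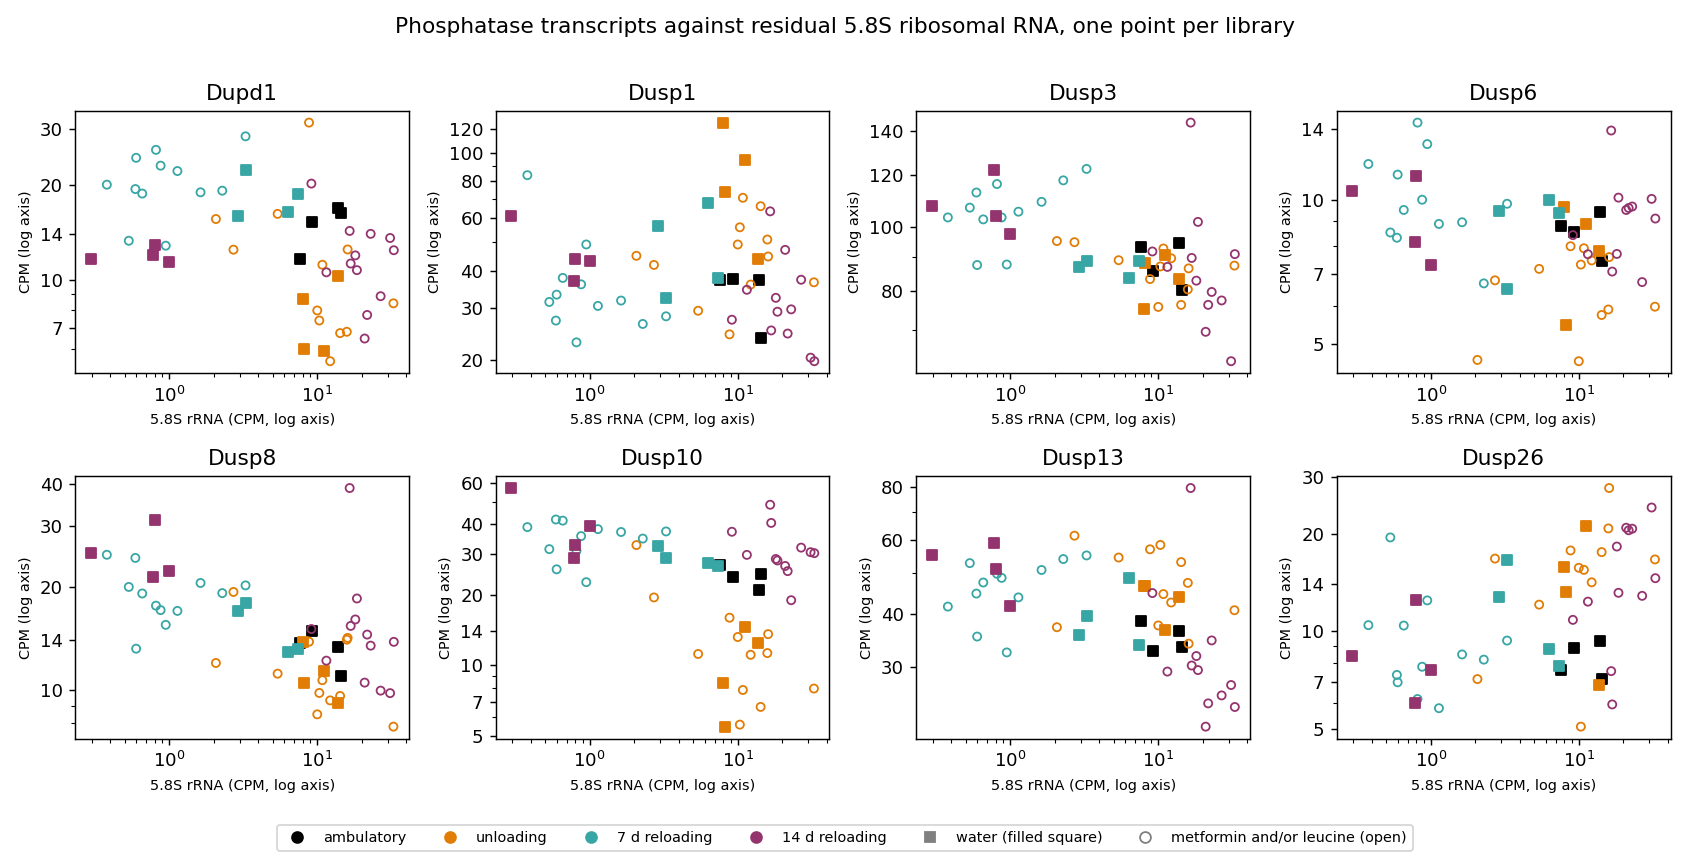
CPM of each phosphatase against the CPM of residual 5.8S ribosomal RNA (both axes logarithmic), one point per library, coloured by time, with filled squares for water. Dusp8 (r = -0.615 on the log2 scale, n = 52) and Dusp3 (r = -0.59) run down to the right, and Dusp26 (r = 0.438) runs up.

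Of the 8 genes, those whose 4 libraries did not overlap the ambulatory ones during unloading numbered 3 on water, 3 on metformin, 2 on leucine and 0 on both drinks. Over all 16668 genes the share without overlap was 13%, 14.2%, 13.2% and 11.5%. From unloading to 7 days of reloading the counts were 2 on water, 4 on metformin, 5 on leucine and 2 on both, beside 17.2%, 29.2%, 29.3% and 17.7% of all genes. For the drinks against water at 14 days the counts were 3 on metformin, 1 on leucine and 0 on both, beside 17.8%, 10.1% and 3.28%. Because the genes were picked on these groups, nothing is read from the counts. Without the Gm23935-rich library the count for both drinks was 4.

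The pathways around these phosphatases were followed through lists of other genes, tested with edgeR's quasi-likelihood test and Benjamini-Hochberg adjustment over 16668 genes. These lists were drawn up with earlier results known, so their direction is not independent evidence. Of all genes, 2.78%, 3.62%, 3.74% and 2.07% passed an adjusted p of 0.05 in unloading against ambulatory on water, metformin, leucine and both. The shares for 7 days of reloading against unloading were 4.88%, 29.6%, 28.6% and 5.91%. For drink against water at 14 days they were 5.12% on metformin, 0.294% on leucine and 0.714% on both.

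Few of the other phosphatases passed the test in unloading. Of 4 measured typical relatives (Dusp4, Dusp5, Dusp7 and Dusp16) 0 passed edgeR's test with any drink, and at an unadjusted p under 0.05 there was 1 on water and 1 on leucine. Of 16 atypical list entries 2 fell on water and on both drinks, and 1 fell on metformin and on leucine, with 2, 5, 3 and 4 at an unadjusted p under 0.05 on water, metformin, leucine and both. Dusp19, a phosphatase linked to JNK signalling, fell with all 4 drinks. It measured 7.81 ± 0.668 CPM in ambulatory mice and 5.01 ± 0.555 CPM (SD, n = 4) in unloaded mice on water, a difference of -0.64 ± 0.16 (edgeR adjusted p = 0.0185). Styx, a catalytically dead relative, fell on water (-0.73 ± 0.20, edgeR adjusted p = 0.0336) and on both drinks (-0.71 ± 0.20, edgeR adjusted p = 0.0472). With the 5.8S covariate Dusp19 and Styx still passed on water (edgeR adjusted p = 0.0216 and 0.0353). Neither passed on both drinks with it (edgeR adjusted p = 0.196 and 0.0988). Without the libraries high in albumin 0 of the 16 passed on water or on both drinks, where the edgeR adjusted p was 0.0633 and 0.0555 for Dusp19 and 0.165 and 0.12 for Styx.

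After 7 days of reloading 2 typical and 4 atypical entries passed the test in the metformin arm and again 2 and 4 in the leucine arm, where 29.6% and 28.6% of all genes did. On metformin Dusp4, an ERK phosphatase, rose 2.90-fold (edgeR adjusted p = 0.00363), Dusp14 rose 2.06-fold (edgeR adjusted p = 0.00309) and Dusp16, a JNK phosphatase, fell by 0.30 on the log2 scale (edgeR adjusted p = 0.0315). On leucine Dusp16 and Dusp7 fell (-0.33 ± 0.11 and -0.57 ± 0.19, edgeR adjusted p = 0.018 and 0.0233). Of these entries 0 passed in either arm with the 5.8S covariate. The log2 fold change was then 1.73 for Dusp4 (edgeR adjusted p = 0.283), 0.71 for Dusp14 (edgeR adjusted p = 0.508) and -0.24 for Dusp16 (edgeR adjusted p = 0.603) on metformin. On leucine it was -0.26 for Dusp16 (edgeR adjusted p = 0.792) and -0.65 for Dusp7 (edgeR adjusted p = 0.655). Without the libraries high in albumin 0 entries passed on leucine, and Dusp14 no longer passed on metformin (edgeR adjusted p = 0.109). Markers of other cells moved in the same arms: 6 of 6 adipocyte markers rose and 6 of 6 red blood cell markers fell on metformin, and 6 of 7 macrophage and 4 of 6 adipocyte markers rose on leucine. Their part in these results was not tested.

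On water 0 of the 4 typical and 0 of the 16 atypical entries passed edgeR's test, with 1 and 5 at an unadjusted p under 0.05.

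Of 23 MAP kinases and upstream kinases, 1 rose and 1 fell in unloading with each drink, and they were the same pair. Map2k3 and Map2k6 are both activators of p38. Map2k3 on water went from 48 ± 8.54 to 77.8 ± 9.88 CPM (0.70 ± 0.14, edgeR adjusted p = 0.00129). Map2k6 went from 49.9 ± 7.41 to 28.1 ± 6.79 CPM (-0.83 ± 0.17, edgeR adjusted p = 0.00289). After 7 days on water Map2k3 fell again (-0.51 ± 0.14, edgeR adjusted p = 0.0195). In the metformin arm 7 of the 23 rose and 4 fell, and in the leucine arm 5 rose and 6 fell, beside 29.6% and 28.6% of all genes called. Of the 23, 0 passed in either arm with the 5.8S covariate, and without the libraries high in albumin 7 passed on metformin and 1 on leucine. In unloading on water without those libraries Map2k6 still passed (edgeR adjusted p = 0.00951) and Map2k3 did not (0.63, edgeR adjusted p = 0.076). With both drinks Map2k3 passed neither without them (edgeR adjusted p = 0.259) nor with the covariate (edgeR adjusted p = 0.129), and Map2k6 passed with the covariate (edgeR adjusted p = 0.00935) but not without those libraries (edgeR adjusted p = 0.0579).

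Early response and ERK feedback genes, a list that holds Fos, were tested as 18 genes. During unloading 5 rose on water, 5 on metformin, 1 on leucine and 0 on both drinks, and none fell. Without the libraries high in albumin 2 passed on water, and Jun, named next, was not among them (0.80, edgeR adjusted p = 0.0742). Fos was picked for its likeness to Dusp1 over these same libraries, so its levels are a description with no test. It was 2.72 ± 0.66 CPM in ambulatory mice, 28.5 ± 12.5 CPM in unloaded mice on water and 2.84 ± 1.84 CPM with both drinks. Jun rose on water from 87.3 ± 14.9 to 163.2 ± 15.7 CPM (edgeR adjusted p = 0.00122). Red blood cell markers moved beside these genes. Of 6 tested, 5 rose on water, 6 on metformin, 0 on leucine and 0 on both, with sums of 2.85 to 6.24 CPM in ambulatory, 27.6 to 59.9 CPM in water and 6.33 to 15.1 CPM in both-drink libraries. Their part in the early response values was not tested.

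Glucocorticoid-responsive genes were the list with the most calls in unloading. Of 15 tested, 12 rose on water, 12 on metformin, 13 on leucine and 7 on both drinks, with median log2 fold changes of 1.27, 1.24, 1.35 and 0.77 beside -0.01 to 0.01 for all genes. Ddit4, an inhibitor of mTORC1, rose 31.2-fold on water (2.02 ± 0.711 to 62.6 ± 26.8 CPM, edgeR adjusted p = 2.06e-08), and Foxo1, an activator of muscle protein breakdown, 4.38-fold (edgeR adjusted p = 2.79e-09). After 7 days of reloading 11, 14, 15 and 12 of the 15 fell on water, metformin, leucine and both, and 0 rose. In these 4 comparisons 10, 6, 6 and 8 of the 15 passed with the 5.8S covariate, and without the libraries high in albumin 7, 12, 11 and 7. In unloading without those libraries 6, 10, 13 and 3 passed. Over all lists 21 genes passed on water in unloading, and 9 without the libraries high in albumin.

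**Figure D4:**
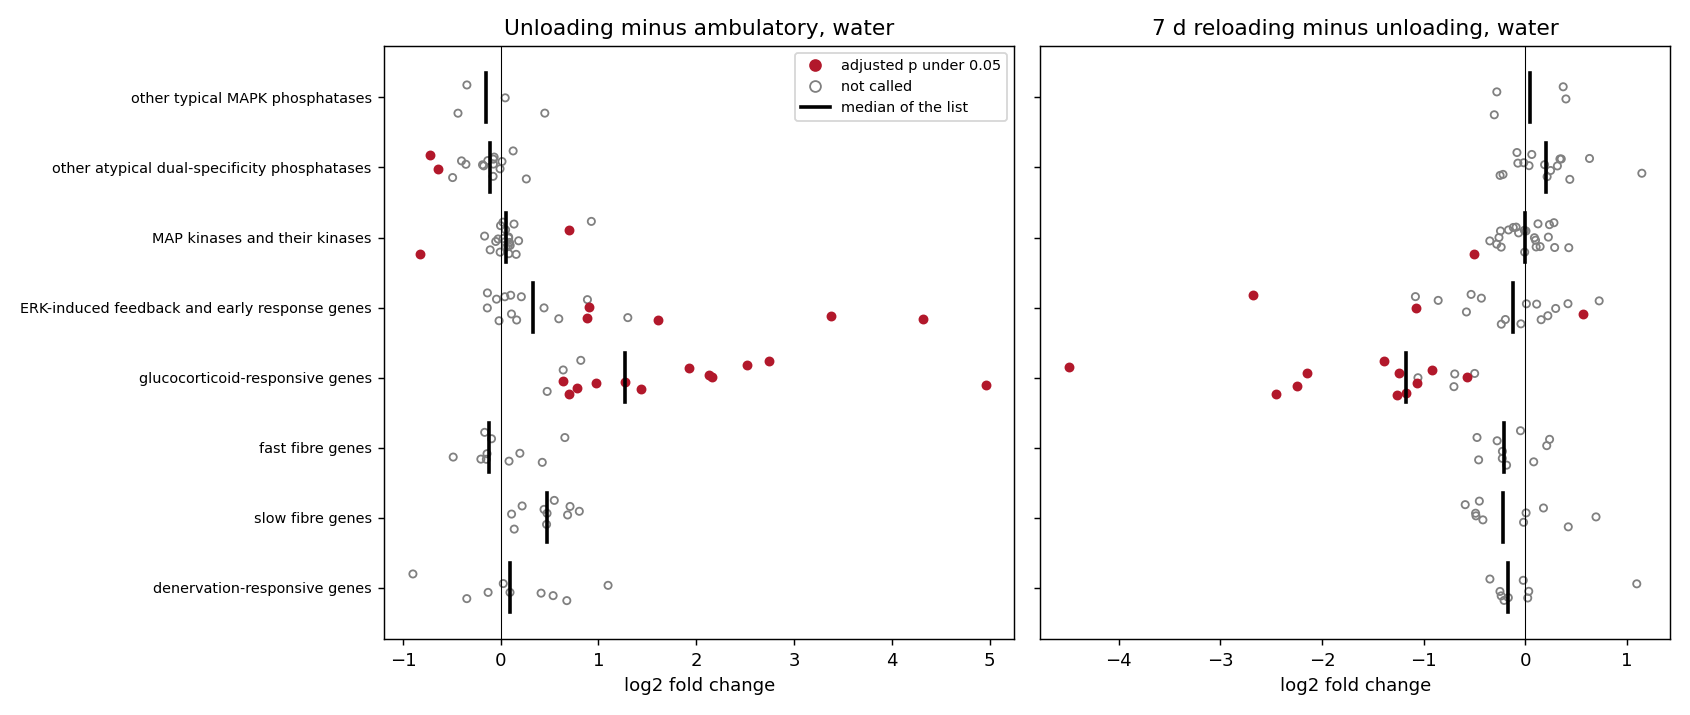
Log2 fold change (horizontal axes) of each tested gene of 8 lists, for unloading minus ambulatory and for 7 days of reloading minus unloading on water, with filled points for edgeR adjusted p under 0.05 and a bar at the median. Of 15 glucocorticoid-responsive genes 12 are filled on the right of 0 in unloading and 11 on the left of 0 in reloading.

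In unloading 0 of 10 fast and 0 of 10 slow fibre genes passed the test with any drink. Of 9 denervation-responsive genes 0 were called there by edgeR. At an unadjusted p under 0.05 there were 1 to 2 fast fibre, 0 slow fibre and 0 to 2 denervation-responsive genes per drink. At 14 days on metformin against water, the comparison in which Dusp8, Dusp13 and Dusp3 were lower, 6 of 23 MAP kinase genes fell and 0 rose. They included Mapk12, the p38 gamma kinase of muscle (-0.59 ± 0.13, edgeR adjusted p = 0.0121). All 6 red blood cell markers rose in this comparison, and 5.8S ribosomal RNA was higher in all 4 metformin libraries. Of all list genes, 10 passed the test here and 0 did so with 5.8S as a covariate. The 10 also rested on single libraries: 0 passed without water replicate 3, water replicate 4 or metformin replicate 6, 1 without metformin replicate 1 and 2 without metformin replicate 2.

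Whether reloading acted differently under a drink than under water was tested as an interaction. Of 105 list genes tested with edgeR's quasi-likelihood test, 0 passed for metformin, for leucine or for both drinks, with 7, 9 and 3 at an unadjusted p under 0.05. Among the 8 phosphatases the largest such difference was that of Dupd1 with both drinks, given above. For Dusp10 it was 0.40 ± 0.38 on metformin, 0.17 ± 0.38 on leucine and -0.57 ± 0.37 on both.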

How the data were processed

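The authors deposited a table of raw counts per gene for 52 libraries of total RNA, prepared with a stranded ribosomal RNA depletion kit per the labels' protocols. STAR 2.7.3a, featureCounts 1.6.3, DESeq2 1.30.0 and GRCm38 appear in the submitters' processing notes; the annotation and strand setting are not given in the sources used here. Of 55487 identifiers 55227 matched GENCODE vM21.

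Counts were filtered with filterByExpr (minimum count 10), scaled by TMM and fitted in edgeR 4.0.16 (R 4.3.3) as 13 group means, with 39 residual degrees of freedom, 22 contrasts and Benjamini-Hochberg adjustment. CPM uses TMM-scaled totals, and correlations use log2 CPM with a prior count of 2. The fit was tested on simulated data. The members and lists were chosen with earlier results of these data known. Named list genes are up to 2 rising and 2 falling with the smallest p per list and comparison, and the 3 genes most like each member among 10200; Fos was also followed because Dusp1 is most like it. Not every gene the rule names is reported here. No replicate pair agreed within sampling noise (lowest chi-square per degree of freedom 6.63 over 78 pairs). Alternatives were RLE factors, no filter, DESeq2 1.42.0, fewer groups, a replicate block and each library left out. A 5.8S covariate and leaving out albumin-rich libraries were added after seeing the data.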

Additional observations from a re-analysis of the deposited data

Results flagged for a closer look

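In 7 of 104 pairs of phosphatase and group, 1 of the 4 libraries stood apart from the other 3 by a gap above Dixon's 95% critical value for the group's range. Chance gives about 1 such group in 20. Dusp1 was low in ambulatory replicate 5 (23.64 CPM, the others 37.2 to 37.4). It was high in replicate 6 of 7 days of reloading with both drinks (35.94 CPM, the others 26.4 to 28.04). Replicate 1 of 14 days with both drinks had 63.36 CPM of Dusp1 (the others 19.8 to 25.1) and 79.63 CPM of Dusp13 (the others 24.1 to 30.2). Dusp6 was 7.583 CPM in replicate 1 of unloading on leucine (the others 5.74 to 5.98). Dusp26 was 5.08 CPM in replicate 3 of unloading on metformin (the others 14.2 to 15.7) and 19.49 CPM in replicate 3 of 7 days on leucine (the others 5.79 to 6.96).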

How the results depend on the processing

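Log2 fold changes of the phosphatases moved by less than their pooled SD within groups under RLE factors, DESeq2 and fits to the groups of a comparison only. With 5.8S as a covariate 37 of them moved by at least that SD and 99 did not. Without the albumin-rich libraries 4 moved and 132 did not. Over all fits that left out 1 library 2 moved and 1598 did not. Signs were not compared in these tallies. The counts below are list genes called, in order of unloading (HU) against ambulatory, 7 days (RL7) against unloading, and 14 days (RL14) against water. The cause of each shift was not tested, and in some settings the number of libraries or genes that entered also changed. As fitted they were 21, 20, 17 and 11 (HU on water, metformin, leucine, both), 15, 42, 41 and 17 (RL7) and 10, 0 and 0 (RL14 on metformin, leucine, both). Without a filter they were 6 for HU on both drinks, 10 for RL7 on both and 1 for RL14 on metformin. With the replicate number as a block, RL14 on metformin gave 6 and no other count moved by over 1.5 times; same-numbered libraries shared only a number (70 of 219 pairs had r over 0.1). With 5.8S as a covariate the counts were 6, 6 and 9 for RL7 on metformin, leucine and both, and 0 for RL14 on metformin. The log2 fold change in RL7 then turned sign for Gadd45a, to 0.1817 (metformin) and 0.5901 (leucine), and for Mapk14, to -0.01179 (leucine). Fits to the compared groups only gave 16 (metformin) and 2 (leucine) at RL14, and DESeq2 gave 2 (leucine) and 1 (both). Without the albumin-rich libraries the counts were 9 for HU on water, 3 for HU on both, 8, 14 and 7 for RL7 on water, leucine and both, and 5 for RL14 on metformin; phosphatases without overlap were then 3 for HU on both, 4 for RL7 on both and 4 for RL14 on leucine. Leaving out 1 library gave ranges of 14 to 19 (HU water), 13 to 22 (HU metformin), 15 to 18 (HU leucine), 5 to 12 (HU both), 11 to 15 (RL7 water), 31 to 40 (RL7 metformin), 29 to 43 (RL7 leucine), 8 to 18 (RL7 both), 0 to 10 (RL14 metformin), 0 to 1 (RL14 leucine) and 0 to 18 (RL14 both). Phosphatases without overlap ranged over 2 to 5 (HU leucine), 0 to 3 (HU both), 2 to 4 (RL7 both), 3 to 5 (RL14 metformin), 2 to 5 (RL14 leucine) and 0 to 4 (RL14 both). Over all genes DESeq2 called 546 against 345 by edgeR (HU both), 1339 against 853 (RL14 metformin), 188 against 49 (RL14 leucine) and 202 against 119 (RL14 both).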
